A study of Drosophila melanogaster with 8 samples.

Results

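The question addressed was whether the response of Drosophila S2 cells to transfected double-stranded DNA (dsDNA) depends on dSTING. S2 cells are an embryonic fly line with features of blood cells (hemocytes). The members are all 8 of the 8 arrays of the series, assigned by sample title, and what is described is 1 contrast across 18769 probe sets of an Affymetrix array: the difference between dsDNA and mock in dSTING RNAi cells, minus the same difference in control cells. This contrast is called the interaction, and a positive value means that dsDNA minus mock was higher in dSTING RNAi cells than in control cells. The 4 groups of 2 arrays were dSTING RNAi dsDNA, dSTING RNAi mock, control dsDNA and control mock. All cells had first received double-stranded RNA (dsRNA), directed at dSTING in the RNAi groups and non-specific in the control groups, and 3 days later a dsDNA of 90 nucleotides or a mock transfection, which the labels give as lipofectamine only. Lysis followed after 24 hours, so the controls had been through dsRNA and lipid transfection too. In 4 samples the genotype tag follows the DNA treatment and not the RNAi, and the titles were used, whose groups are those of the source names. It is not stated if a group's 2 arrays are from different cultures, and p-values may therefore reflect technical spread alone.

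In mammals, STING is a membrane protein of the endoplasmic reticulum that binds cyclic dinucleotides made by the DNA sensor cGAS and switches on interferon genes. Flies have no interferon. The fly protein also binds cyclic dinucleotides, which are made by cGAS-like receptors, and it signals through the IKKbeta kinase and the NF-kappaB factor Relish, both shared with the Imd pathway of antibacterial defence. A fly cGAS-like receptor is known to respond to double-stranded RNA, which cells of every group had been given.

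The deposited values are intensities on a linear scale with a floor of 1, at which 19.6% to 24.15% of an array's values lay. They were analysed as log2(intensity + 1), so differences of dim probe sets are understated, and 4189 probe sets with a mean above 3 on that scale are called brighter here. Of 28 hemocyte markers 14 were among the brighter genes, against none of 7 measured markers of fat body, 8 of muscle and 6 of gut, 1 of 11 of neurons and glia and 1 of 9 of germline and follicle. A bulk measurement cannot tell fewer cells of a type from less RNA per cell. The summed intensity of the hemocyte markers was 1316 and 1568 in the dSTING RNAi dsDNA arrays, 1416 and 1459 in dSTING RNAi mock, 1431 and 1598 in control dsDNA and 1494 and 1306 in control mock. The first principal component of the brighter probe sets held 52.1% of the variance, and on it dSTING RNAi dsDNA number 2 lay at -12.5 and control mock number 2 at 12.2, with the other 6 arrays from -3.05 to 5.55. Both of these outlying arrays enter the interaction, and the main counts, correlations and list medians are also given without one or both of them.

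No probe set had an interaction that passed an adjusted p of 0.05 by limma with Benjamini-Hochberg adjustment over all 18769 (0%), and every adjusted p was 1. At an unadjusted p under 0.05 there were 786 probe sets (4.19%), of which 389 (2.07%) were positive and 397 (2.12%) negative. The effect of dsDNA itself also passed for no probe set over all of them, either in dSTING RNAi cells (0%) or in control cells (0%). When the brighter probe sets were fitted alone, limma again called none (0%), with 36 at an unadjusted p under 0.05 (0.859%), of which 32 (0.764%) were positive and 4 (0.0955%) negative. eBayes with trend and robust options called none over all probe sets, with 703 at an unadjusted p under 0.05 (3.75%).

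The interactions that could be measured were small. No probe set reached 1 on the log2 scale in either direction (0% of all and 0% of the brighter ones), and the median absolute interaction of brighter probe sets was 0.10. The 95% interval lay wholly within -1 and 1 for 18281 probe sets (97.4%) and for 3905 of the brighter ones (93.2%). The share over all probe sets says less, since 8854 had a mean log2 level of at most 1.1, where differences are understated. The interval lay within -0.5 and 0.5 for 1930 of the brighter ones (46.1%). For the other brighter probe sets a difference of that size was not excluded at this number of arrays. The median half-width of the interval among brighter probe sets was 0.41.

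Sting (CG1667), the gene the dsRNA targeted, was low in both dsDNA and mock arrays of RNAi cells. Its intensity was 5.33 and 8.05 in dSTING RNAi dsDNA arrays, 3.45 and 6.33 in dSTING RNAi mock, 53.1 and 51.6 in control dsDNA and 50.9 and 48.7 in control mock. The RNAi and control arrays did not overlap, while the dsDNA and mock arrays of RNAi cells did. The dsDNA effect on Sting was 0.41 (SE 0.27) in RNAi cells and 0.07 (SE 0.27) in control cells, an interaction of 0.34 (SE 0.39, 95% interval -0.64 to 1.31; unadjusted limma p 0.425). Without dSTING RNAi mock number 1 the interaction of Sting was -0.03, and without dSTING RNAi mock number 2 it was 0.70. The low level of Sting was thus present under both treatments, and an interaction in its own mRNA was not called.

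Genes that act with STING gave no interaction past the threshold. Of 11 listed, 10 were measured and 0 had an unadjusted p under 0.05, against 4.19% of all probe sets, with a median of 0.06 where all probe sets had 0.00. key (Kenny), the IKK gamma subunit that activates Relish in the Imd pathway, had an intensity of 32.7 and 34.99 in dSTING RNAi dsDNA arrays, 29.5 and 32.1 in dSTING RNAi mock, 45.6 and 42.9 in control dsDNA and 42.1 and 42.9 in control mock. It was lower in all 4 RNAi arrays than in all 4 control arrays, and its dsDNA effect was 0.13 in RNAi and 0.06 in control cells, an interaction of 0.08 (SE 0.08, 95% interval -0.14 to 0.29). Rel, the Relish gene, lay between 24.1 and 32.4 in the 8 arrays with an interaction of -0.01 (SE 0.13, 95% interval -0.33 to 0.31).

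Nazo, whose antiviral activity in flies depends on STING signalling, was dim, at 1.37 and 1.94 in dSTING RNAi dsDNA arrays, 1.54 and 1.61 in dSTING RNAi mock, 2.93 and 3.02 in control dsDNA and 4.51 and 2.34 in control mock. All RNAi arrays of Nazo lay below all control arrays, and dsDNA did not separate from mock in either, with an interaction of 0.15 (SE 0.34, 95% interval -0.72 to 1.01). Without control mock number 1 the interaction of Nazo was -0.22. The kinase gene IKKbeta was dim too, with 0.08 (SE 0.25), and without control mock number 1 its value was -0.10. The receptor genes cGlr1 (-0.01, SE 0.07) and cGlr2 (0.10, SE 0.12), the STING-regulated genes Srg1 (-0.06, SE 0.15) and Srg2 (-0.03, SE 0.06) and the kinase gene IKKepsilon (0.05, SE 0.10) stayed near the floor in every array.

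**Figure D1:**
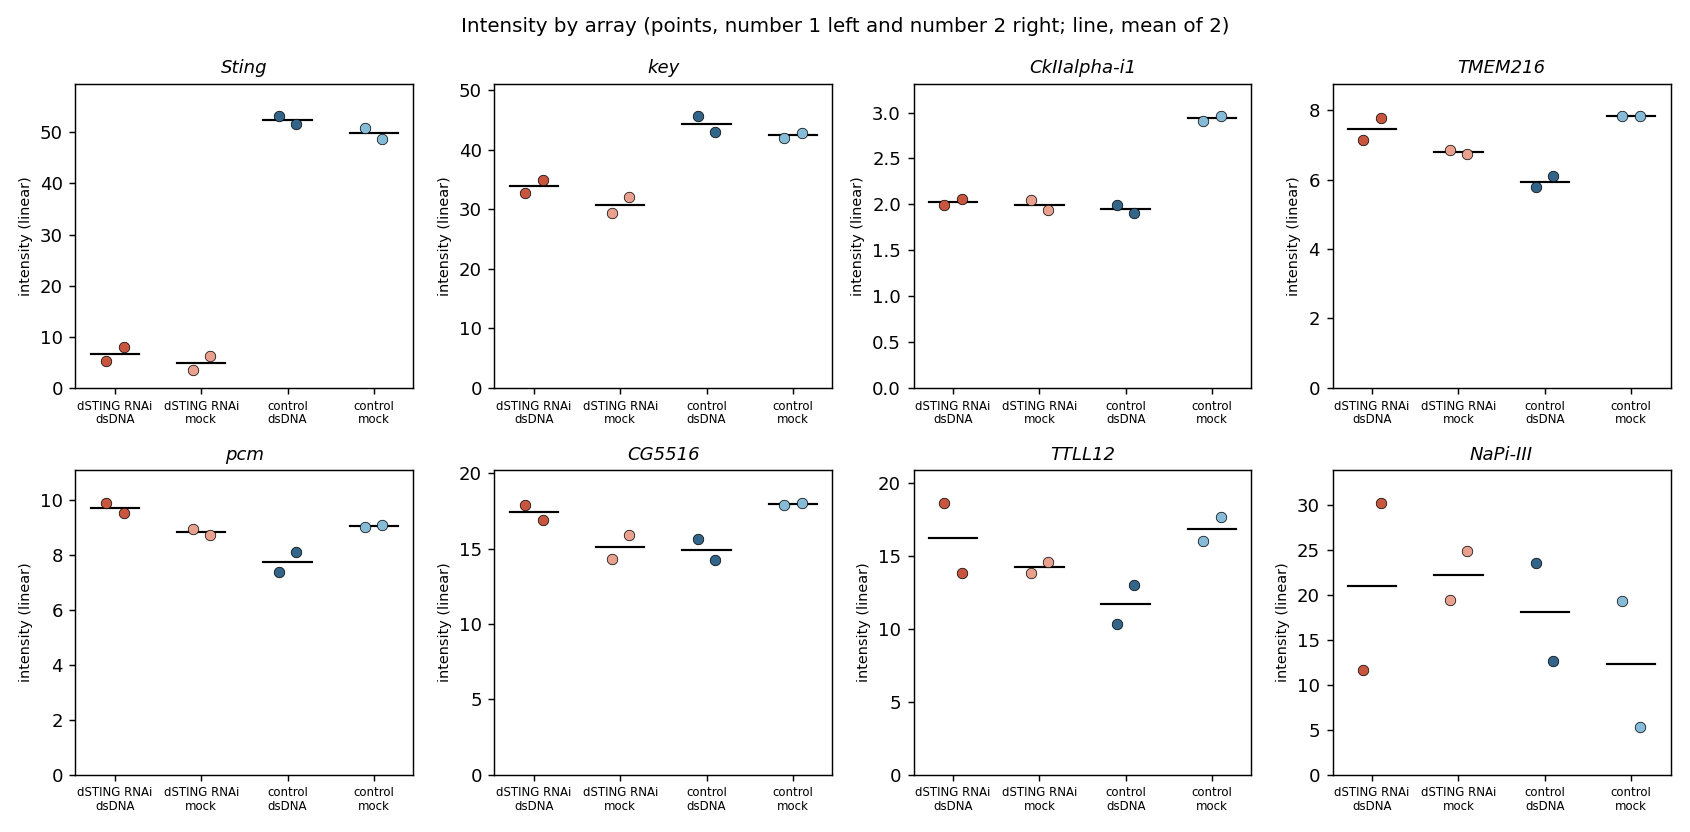
Intensity on a linear scale in each of the 8 arrays for Sting, key, CkIIalpha-i1, TMEM216, pcm, CG5516, TTLL12 and NaPi-III, with points for arrays number 1 (left) and 2 (right) of a group and a line at their mean. Sting and key differed by RNAi under both treatments, CkIIalpha-i1 was high in control mock alone, pcm and CG5516 were higher with dsDNA than mock in RNAi cells and lower in control cells, and the 2 arrays of NaPi-III differed widely within groups.

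Immune effector and signalling genes had no interaction past the threshold, and many lay near the floor. None of 10 measured antimicrobial peptide genes was among the brighter genes, and their median was 0.04. Of the 10, 0 had an unadjusted p under 0.05 (0% against 4.19% of all probe sets). The highest interaction among them was that of Drs, the drosomycin gene, at 0.58 (SE 0.35, unadjusted limma p 0.153), from a dsDNA effect of 0.10 in RNAi cells and -0.48 in control cells; Drs is named after its values were seen. Drsl2, a drosomycin-like gene, had 0.11 (SE 0.05), and Mtk, which encodes metchnikowin, had -0.13 (SE 0.08). Of 20 Imd pathway genes 1 had an unadjusted p under 0.05 (5% against 4.19% of all probe sets), PGRP-LB, an amidase that cleaves peptidoglycan and dampens the pathway. Its intensity was 1 and 1.08 in dSTING RNAi dsDNA arrays, 1.32 and 1.37 in dSTING RNAi mock, 1.06 and 1.11 in control dsDNA and 1.049 and 1 in control mock, all close to the floor (interaction -0.24, SE 0.05, unadjusted limma p 0.00364). The 13 brighter Imd genes had a median of 0.01, and PGRP-LA, a receptor-like member of the family, had 0.15 (SE 0.14).

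Toll genes (18 measured) had a median of 0.02 and 0 at an unadjusted p under 0.05 (0% against 4.19% of all probe sets). The 7 brighter ones had a median of -0.001, with -0.13 without dSTING RNAi dsDNA number 2 and 0.20 without dSTING RNAi mock number 2. GNBP3, a glucan-binding recognition protein, had 0.19 (SE 0.08), and pll, the Pelle kinase, had -0.28 (SE 0.13). Among 11 JAK/STAT and antiviral genes the median was 0.00 and 1 had an unadjusted p under 0.05 (9.09% against 4.19% of all probe sets, a difference that 1 gene makes). This was Su(var)2-10, the fly PIAS protein that restrains STAT, which was 5.004 and 5.38 in dSTING RNAi dsDNA arrays, 3.97 and 4.18 in dSTING RNAi mock, 4.36 and 4.48 in control dsDNA and 4.47 and 4.19 in control mock. Both dsDNA arrays lay above both mock arrays in RNAi cells, and in control cells they overlapped (interaction 0.26, SE 0.07, unadjusted limma p 0.0105). Socs44A, a SOCS box gene, had -0.22 (SE 0.17). The 5 brighter JAK/STAT and antiviral genes had a median of -0.02, with -0.32 without dSTING RNAi dsDNA number 2 and 0.08 without number 1. Of 28 hemocyte markers 0 had an unadjusted p under 0.05 (0% against 4.19% of all probe sets). The 14 brighter ones had a median of -0.08, where brighter genes taken once each had 0.04. The part of the summed hemocyte marker level, given above for each array, in other results was not tested. PPO2, a prophenoloxidase of crystal cells near the floor here, had -0.30 (SE 0.12), and Tep4, a thioester protein, had 0.11 (SE 0.08).

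The smallest unadjusted p belonged to probe sets of low intensity. CkIIalpha-i1, named for its binding to casein kinase II, had an intensity of 1.99 and 2.05 in dSTING RNAi dsDNA arrays, 2.05 and 1.94 in dSTING RNAi mock, 1.99 and 1.91 in control dsDNA and 2.91 and 2.96 in control mock. Only the control mock arrays were high, so its interaction of 0.43 (SE 0.05, unadjusted limma p 0.000188) came from a dsDNA effect of 0.01 in RNAi cells and -0.42 in control cells. TMEM216, a gene of the ciliary transition zone, was 7.13 and 7.77 in dSTING RNAi dsDNA arrays, 6.84 and 6.75 in dSTING RNAi mock, 5.78 and 6.11 in control dsDNA and 7.82 and 7.83 in control mock. With dsDNA it was higher than mock in RNAi cells and lower in control cells without overlap (interaction 0.46, SE 0.07).

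Of the 20 genes with the smallest p, 10 in each direction, 18 had groups that crossed, with both dsDNA arrays on one side of both mock arrays in RNAi cells and on the other side in control cells. Choosing by the interaction p favours such genes, so this count is a description of the choice. MCPH1, the microcephalin gene, which acts in chromosome condensation, was 7.07 and 7.02 in dSTING RNAi dsDNA arrays, 5.63 and 5.91 in dSTING RNAi mock, 5.15 and 6.04 in control dsDNA and 7.14 and 7.30 in control mock (interaction 0.57, SE 0.10). A further probe set of MCPH1 had -0.11, so the probe sets disagree. mav, which encodes the TGF-beta ligand maverick, was 2.05 and 1.94 in dSTING RNAi dsDNA arrays, 1.45 and 1.38 in dSTING RNAi mock, 1.24 and 1.499 in control dsDNA and 1.73 and 1.91 in control mock (0.56, SE 0.09). CG2258 had 0.60 (SE 0.09). Near the floor were the receptor tyrosine kinase gene Tie (0.32, SE 0.04; a further probe set had -0.16), the tetraspanin gene Tsp42Eo (0.29, SE 0.04), CG4230 (0.49, SE 0.08), the homeobox gene Ptx1 (0.39, SE 0.07) and Oseg1, a gene of ciliary transport (0.44, SE 0.08).

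On the negative side the crossing ran the other way, with dsDNA below mock in RNAi cells and above it in control cells. al, a homeobox gene, was 1.15 and 1.07 in dSTING RNAi dsDNA arrays, 1.47 and 1.41 in dSTING RNAi mock, 1.89 and 1.82 in control dsDNA and 1.31 and 1.498 in control mock (interaction -0.46, SE 0.07). IntS12, a subunit of the Integrator complex, had -0.32 (SE 0.06), CG14770 -0.36 (SE 0.06), dpr4, an immunoglobulin family gene, -0.33 (SE 0.05) on one probe set and 0.00 on the other, gom -0.26 (SE 0.04), CG14823 -0.26 (SE 0.05) on 1 of 3 probe sets, which ranged up to 0.06, and CG4546, whose groups did not cross, -0.23 (SE 0.04). mod(mdg4), a chromatin protein gene, had -0.39 (SE 0.05) on 1 of its 22 probe sets, which ranged from -0.39 to 0.30, and Fmr1, which binds mRNA, had -0.31 (SE 0.05) on one probe set and 0.04 on the other.

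Crossed groups were counted over the whole array. Both dsDNA arrays lay above both mock arrays in RNAi cells and below them in control cells for 335 probe sets (1.78%), and the opposite held for 310 (1.65%). Among the brighter probe sets the counts were 59 (1.41%) and 9 (0.215%).

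Brighter probe sets leaned to positive interactions, and this lean depended on how arrays were scaled. Of 4189, 2523 were positive (60.2%), with a median of 0.04, whereas quantile normalization gave 49.4% positive and centring each array on its brighter probe sets 47.8%. At an unadjusted p under 0.05 there were 95 (2.27%), 78 positive (1.86%) and 17 negative (0.406%), but 40 and 45 after quantile normalization, 36 and 39 after centring, and 251 and 85 without both outlying arrays. The median was 0.06 for 1318 probe sets with a mean log2 level between 3 and 4, and 0.00 for 209 above 8. Brighter probe sets with an interaction of at least 0.5 numbered 24 (0.573%), and 3 (0.0716%) had -0.5 or less. Positive values outnumbered negative ones in every setting that had any of this size, and the margin depended on scaling and arrays. There were 11 and 8 after quantile normalization and 12 and 6 after centring. With log2(intensity + 16), which shrinks differences at these levels, there were 0 and 0. The counts were 110 and 78 without dSTING RNAi dsDNA number 2, and 73 and 58 without control mock number 1. They were 23 and 2 without control mock number 2, 53 and 7 without control dsDNA number 2, and 59 and 18 without both outlying arrays.

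TTLL12, a tubulin-tyrosine ligase-like gene, had the highest interaction among brighter named genes. It was 18.6 and 13.8 in dSTING RNAi dsDNA arrays, 13.9 and 14.6 in dSTING RNAi mock, 10.3 and 13.02 in control dsDNA and 16.1 and 17.7 in control mock. The control dsDNA arrays were the low ones and the RNAi arrays overlapped (0.66, SE 0.23, 95% interval 0.08 to 1.25). CG33307 was 8.80 and 9.87 in dSTING RNAi dsDNA arrays, 5.86 and 6.87 in dSTING RNAi mock, 8.08 and 6.41 in control dsDNA and 8.37 and 7.95 in control mock. Here the RNAi cells differed most, with a dsDNA effect of 0.49 (SE 0.12) in RNAi cells and -0.16 (SE 0.12) in control cells (interaction 0.65, SE 0.17).

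Iru, an E3 ubiquitin ligase gene, was 21.5 and 18.2 in dSTING RNAi dsDNA arrays, 16.3 and 18.5 in dSTING RNAi mock, 15.9 and 16.4 in control dsDNA and 20.4 and 22.6 in control mock (0.57, SE 0.14). AlkB, a homologue of the bacterial dioxygenase that removes alkyl groups from nucleic acids, had 0.56 (SE 0.16), and dsDNA minus mock was 0.09 in RNAi cells and -0.47 in control cells. Srx, which encodes sulfiredoxin, an enzyme that restores oxidised peroxiredoxins, had 0.64 (SE 0.29). vret, a Tudor domain gene of the piRNA pathway, had 0.60 (SE 0.24), Bug22, a ciliary protein gene, 0.61 (SE 0.23), CG15536 0.58 (SE 0.21) and Josd, a Josephin deubiquitinase gene, 0.56 (SE 0.26). The nucleotidase gene cN-IIIB had 0.56 (SE 0.53), and without dSTING RNAi dsDNA number 1 its value was 0.04. Without that array Josd had 0.28 and vret 0.39, while Bug22 had 0.35 without dSTING RNAi mock number 1 and Srx 0.39 without control dsDNA number 1.

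The most negative interactions among brighter genes had wide errors. NaPi-III, a phosphate transporter gene, was 11.7 and 30.2 in dSTING RNAi dsDNA arrays, 19.4 and 24.9 in dSTING RNAi mock, 23.5 and 12.6 in control dsDNA and 19.4 and 5.28 in control mock. The 2 arrays of a group differed widely (interaction -0.90, SE 1.01, 95% interval -3.45 to 1.64). Without control mock number 2 the value was -0.05, and without control mock number 1 it was -1.75. MFS14, a transporter of the major facilitator family, had -0.81 (SE 0.80), or -0.17 without control mock number 2 and -1.44 without control mock number 1. Its highest intensity, 42.7, was in dSTING RNAi dsDNA number 2 and its lowest, 11.3, in control mock number 2. gol, the goliath E3 ubiquitin ligase gene, had -0.73 (SE 0.56), and -0.07 on a further probe set. Without dSTING RNAi dsDNA number 1 the value was -0.26, and without number 2 it was -1.19. Wide errors also held for CG3348 -0.49 (SE 0.75), hzg -0.47 (SE 0.35), the forkhead factor gene jumu -0.45 (SE 0.22) and CG10359 -0.45 (SE 0.56). CG3348 and CG10359 had 0.10 and 0.07 without dSTING RNAi dsDNA number 1, and CG3348 had 0.04 without control mock number 2. hzg had -0.21 without dSTING RNAi dsDNA number 1, and jumu had -0.26 without control mock number 2. Pmvk, a kinase of the mevalonate pathway, had -0.45 (SE 0.14), or -0.29 without dSTING RNAi mock number 1, and BicD, an adaptor of the dynein motor, had -0.43 (SE 0.12).

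The brighter genes with the smallest p had tight arrays and modest values. Choosing by the interaction p favours tight arrays and crossed groups here too. CG9953 was 38.9 and 38.6 in dSTING RNAi dsDNA arrays, 38.6 and 38.7 in dSTING RNAi mock, 36.9 and 36.2 in control dsDNA and 42.0 and 41.9 in control mock. The 4 RNAi arrays hardly differed and the control groups separated, giving 0.20 (SE 0.04, unadjusted limma p 0.00238). pcm, which encodes Pacman, the exoribonuclease that degrades cytoplasmic RNA from its 5′ end, was 9.88 and 9.50 in dSTING RNAi dsDNA arrays, 8.95 and 8.70 in dSTING RNAi mock, 7.38 and 8.09 in control dsDNA and 9.01 and 9.09 in control mock. Its groups crossed (0.33, SE 0.07), as did those of CG13016 (0.32, SE 0.07), CG5516 (0.45, SE 0.10) and CG14969 (0.28, SE 0.06). On the other side dmGlut, a glutamate transporter gene, had -0.38 (SE 0.10), the polyubiquitin gene Ubi-p5E -0.29 (SE 0.08), GABPI -0.21 (SE 0.06) and Tmtc3, an O-mannosyltransferase gene, -0.21 (SE 0.06).

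The effect of dsDNA in RNAi cells and that in control cells share no array, and were set against each other over the 4189 brighter probe sets as a description, since probe sets of 1 array are not independent. Pearson's r was 0.469 (Spearman's coefficient 0.446), and 65.7% had the same sign in both. Without dSTING RNAi dsDNA number 2 and control mock number 2, r was 0.016 and 50.01% had the same sign. Without dSTING RNAi dsDNA number 2 alone r was -0.317, and without control mock number 2 alone it was 0.309. How alike both effects were therefore depended on which of these arrays were used.

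**Figure D2:**
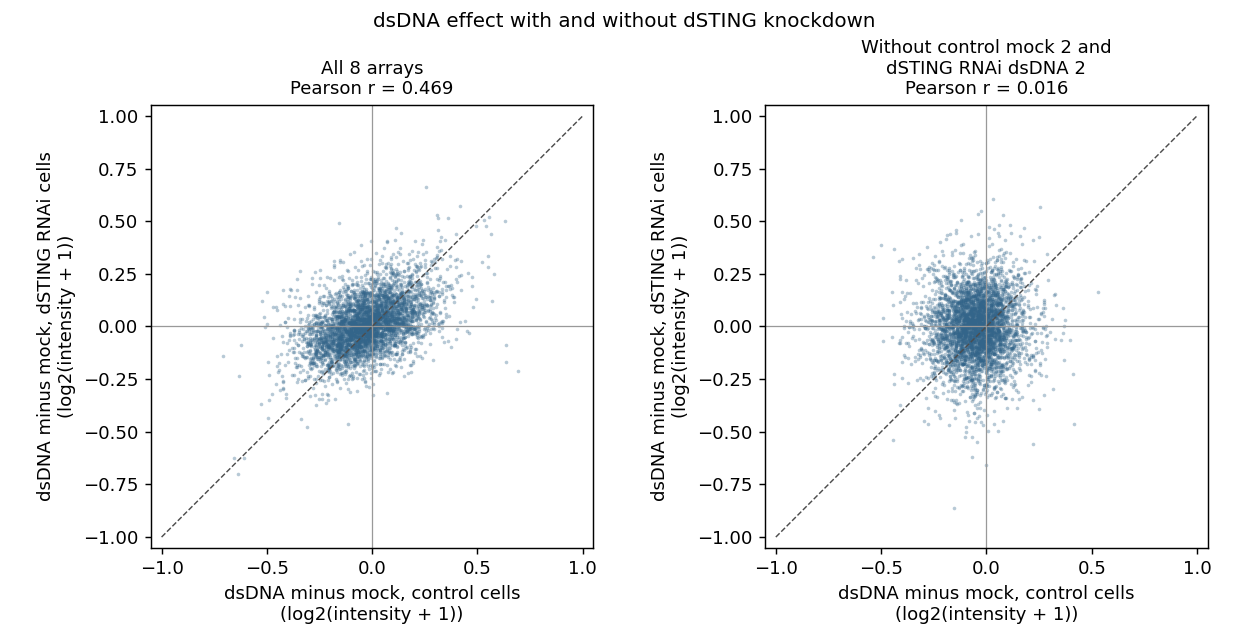
Each point is 1 of 4189 brighter probe sets, with dsDNA minus mock in dSTING RNAi cells (vertical) against that in control cells (horizontal), both as differences of log2(intensity + 1), and a dashed line of equality. With all arrays the points slope upward (r 0.469), and without the arrays that stood apart they do not (r 0.016).

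For dsDNA in RNAi cells 126 brighter probe sets had an unadjusted p under 0.05 (3.01%), and for dsDNA in control cells 233 (5.56%). Of the 126 in RNAi cells, 72 were higher and 54 lower with dsDNA, and 89 (70.6%) had the same sign in control cells, or 83 (65.9%) without control mock number 2. Over all brighter probe sets these shares were 65.7% and 59.6%. Of the 233 in control cells, 39 were higher and 194 lower with dsDNA, and 170 (73.0%) had the same sign in RNAi cells, or 120 (51.5%) without dSTING RNAi dsDNA number 2, where all brighter probe sets gave 65.7% and 38.8%. Their median effect, taken along its own direction, was 0.052 in RNAi cells and 0.229 in the control cells in which they were selected. Selection in one arm makes its effect the larger, so this gap is not a measure of dependence on dSTING. The SD of the dsDNA effect over brighter probe sets was 0.124 in RNAi and 0.161 in control cells, and 0.148 and 0.121 with the array that stood apart left out of each.

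The interaction was also computed from the 4 arrays numbered 1 and from the 4 numbered 2, which share no array, although the numbers did not pair samples. This comparison, the threshold of 0.5 and the counts of sign across arms were chosen after seeing the data. Across brighter probe sets the values from numbers 2 and 1 had a Pearson's r of 0.064. The median was 0.08 from number 1, with 67.9% positive, and -0.01 from number 2, with 47.5% positive. An interaction of 0.5 or more was found for 112 probe sets from number 1 (2.67% of the brighter ones) and 56 from number 2 (1.34%). Of these, 3 were in both (2.68% of the first set and 5.36% of the second). These were CG33307, CG15536 and Bka, the last named after its values were seen, with 0.57 from number 1 and 0.53 from number 2. An interaction of -0.5 or less was found for 25 (0.597% of the brighter ones) and 38 (0.907%). NaPi-III, MFS14 and gol were in both (12.0% and 7.89%), shares that 3 genes make.

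**Figure D3:**
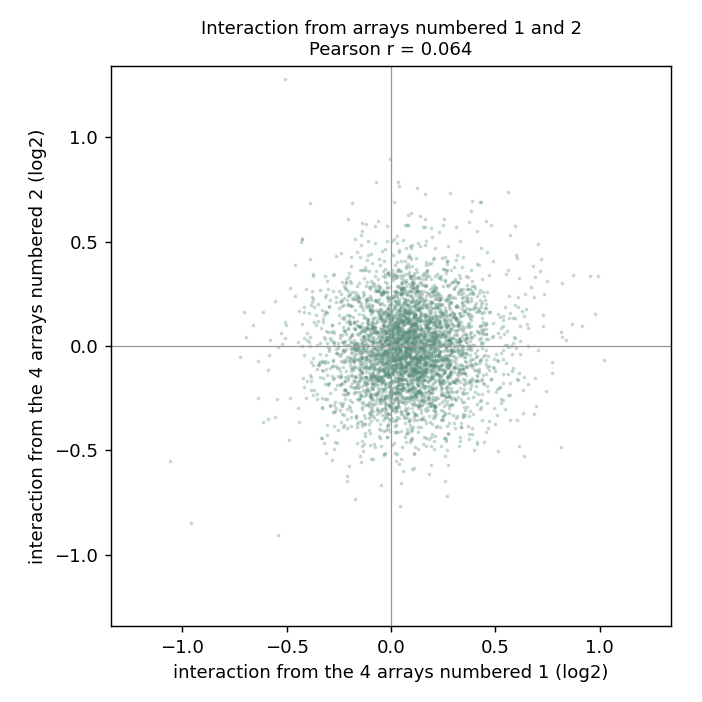
Interaction of 4189 brighter probe sets on the log2 scale from the arrays numbered 2 (vertical) against those numbered 1 (horizontal). The cloud is round (r 0.064), with a median of 0.08 on the horizontal and -0.01 on the vertical axis.

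Mitochondrial ribosomal protein genes, which build the ribosome that translates the mitochondrial genome, had the highest median interaction of the gene groups with 5 or more brighter members. Of 68 brighter members 61 were positive (89.7%), against 61.4% of brighter genes taken once each, with a median of 0.14 against 0.04. Their mean log2 level was 4.97 and 4.66 in dSTING RNAi dsDNA arrays, 4.88 and 4.85 in dSTING RNAi mock, 4.77 and 4.76 in control dsDNA and 4.87 and 5.06 in control mock. The lowest and highest arrays were the pair that stood apart, dSTING RNAi dsDNA number 2 and control mock number 2. In RNAi cells the dsDNA arrays lay on both sides of mock, and in control cells both lay below mock. The median dsDNA effect was -0.07 in RNAi and -0.21 in control cells. Without both arrays that stood apart the median interaction was 0.20, while without dSTING RNAi dsDNA number 1 it was -0.01 and without number 2 it was 0.31. After quantile normalization it was 0.10.

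Of 69 measured members 2 had an unadjusted p under 0.05, or 2.9%, against 2.51% of brighter genes taken once each and 4.19% of all probe sets, and 0 passed over all of them. mRpL35, a protein of the large subunit, was 16.8 and 16.2 in dSTING RNAi dsDNA arrays, 16.8 and 16.4 in dSTING RNAi mock, 15.7 and 15.8 in control dsDNA and 20.5 and 18.9 in control mock. Control mock was high and the other 6 arrays lay between 15.7 and 16.8 (interaction 0.30, SE 0.06, unadjusted limma p 0.0051). mRpS16, of the small subunit, had 0.25 (SE 0.09), with a dsDNA effect of -0.03 in RNAi and -0.29 in control cells.

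Proteasome subunits, respiratory complex I subunits and aminoacyl-tRNA synthetases also had their lowest mean level in dSTING RNAi dsDNA number 2 and their highest in control mock number 2. The 26 proteasome subunits, all brighter, had a median of 0.06 with 21 positive, at a mean log2 level of 6.38 and 6.12 in dSTING RNAi dsDNA arrays, 6.41 and 6.31 in dSTING RNAi mock, 6.24 and 6.35 in control dsDNA and 6.42 and 6.51 in control mock. Their median was -0.07 without dSTING RNAi dsDNA number 1 and 0.21 without number 2. Rpn12, of the regulatory particle, had 0.21 (SE 0.12) and the ATPase Rpt2 0.15 (SE 0.11). Complex I subunits had a median of 0.09 over 25 brighter members, 20 of them positive, with -0.01 and 0.19 without the first and the second dSTING RNAi dsDNA array. ND-75, the subunit that holds iron-sulphur clusters, had 0.20 (SE 0.10), and ND-51L2, near the floor, had 0.30 (SE 0.12). The synthetases, which charge tRNAs, had a median of 0.09 over 20 brighter members, with 14 positive, and 0.00 and 0.14 without those arrays. MetRS-m, dim here, had 0.16 (SE 0.06) and PheRS-m 0.23 (SE 0.10).

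Translation initiation factors had a median of 0.06 over 30 brighter members, 23 of them positive, and kept a positive median with any 1 array left out (0.05 to 0.09). It was 0.03 after quantile normalization and 0.02 after centring. eIF2D, a non-canonical initiation factor, had 0.37 (SE 0.15). eIF4EHP, a repressor that binds the mRNA cap, was dim and had 0.30 (SE 0.13), with 0.00 on a further probe set. Cytosolic ribosomal protein genes, measured for 41 of 92, had a median of 0.02 over 33 brighter members, and their mean log2 level moved little, between 10.21 and 10.26 in the 8 arrays. RpL29 had 0.22 (SE 0.13), and RpS28a, near the floor and not among the brighter members, had -0.22 (SE 0.15). V-ATPase subunits, which acidify lysosomes, had a median of 0.01 over 15 brighter members. Of their 31 measured genes 2 had an unadjusted p under 0.05 (6.45% against 4.19% of all probe sets), Vha100-3 (-0.14, SE 0.05) and VhaM9.7-a (0.27, SE 0.09), both near the floor.

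**Figure D4:**
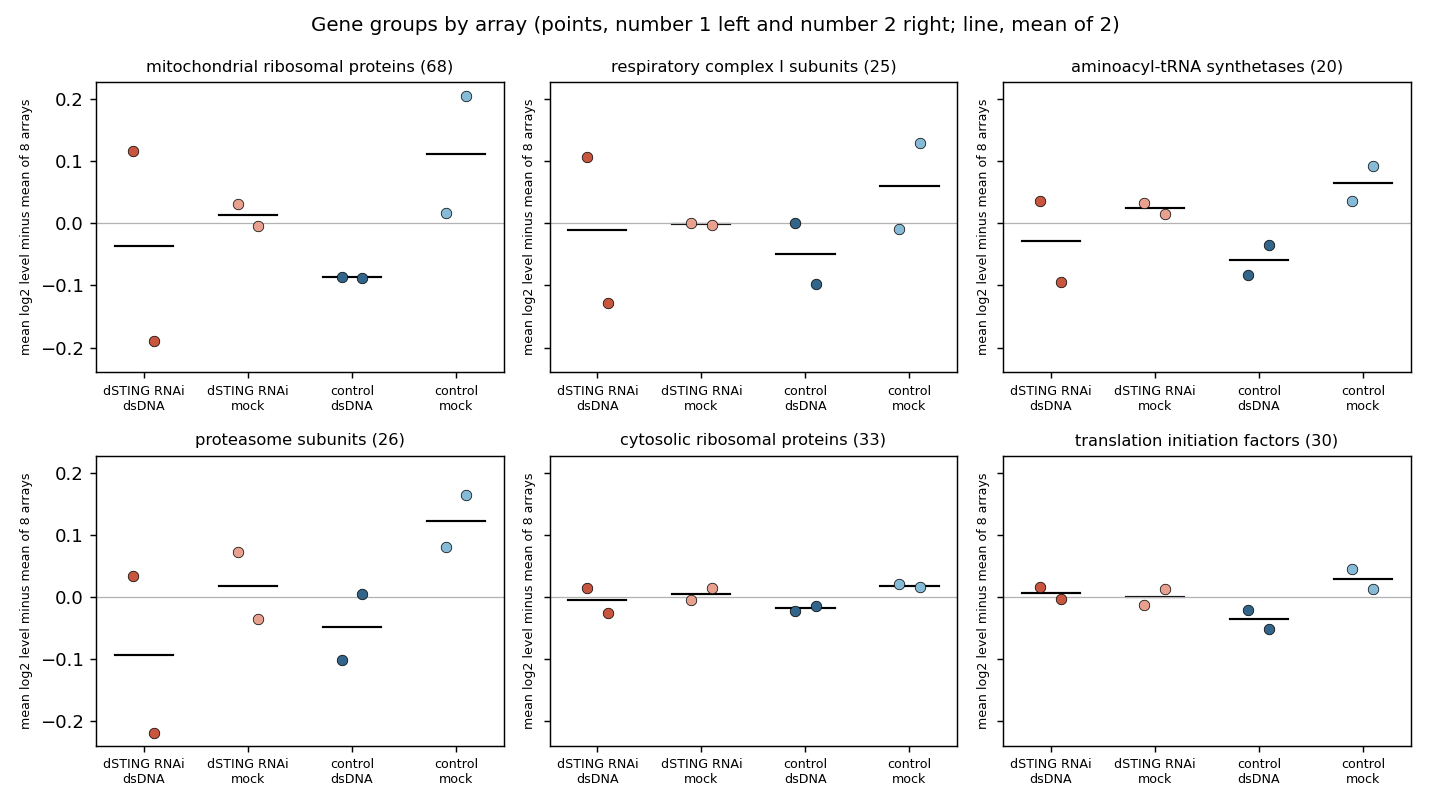
Mean log2 level of the brighter members of 6 gene groups in each array, as the difference from the mean of the 8 arrays, with points for arrays number 1 (left) and 2 (right) and a line at their mean. Mitochondrial ribosomal proteins were lowest in dSTING RNAi dsDNA number 2 and highest in control mock number 2, and cytosolic ribosomal proteins stayed near 0.

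Genes that handle DNA and RNA had values near those of other brighter genes. DNA damage and p53 genes had a median of 0.05 over 10 brighter members, with -0.03 without control mock number 1. Of 20 measured, 1 had an unadjusted p under 0.05 (5% against 4.19% of all probe sets), the p53 target Corp (0.29, SE 0.12), which lay near the floor. rad50, of the complex that processes double-strand breaks, was 55.7 and 46.7 in dSTING RNAi dsDNA arrays, 46.5 and 43.8 in dSTING RNAi mock, 46.8 and 43.6 in control dsDNA and 47.8 and 53.02 in control mock. Its groups crossed by narrow margins (0.32, SE 0.14). Replication and cell cycle genes had 0.07 over 12 brighter members, with -0.06 without dSTING RNAi dsDNA number 1 and 0.20 without number 2. Without both outlying arrays their median was 0.19, where brighter genes taken once each had 0.055. Orc2, of the origin recognition complex and dim here, had 0.40 (SE 0.14) and the helicase gene Mcm6 -0.24 (SE 0.10).

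Nucleic acid degradation and nucleotide genes had a median of 0.01 over 17 brighter members. Of 18 measured, 0 had an unadjusted p under 0.05 (0% against 4.19% of all probe sets). Rrp1, an endonuclease of base excision repair, had 0.23 (SE 0.12), and Gart, of purine synthesis, 0.13 (SE 0.09). RNA interference genes, which destroy or silence RNA, had 0.07 over 5 brighter members, with -0.01 without dSTING RNAi mock number 1. All 18 measured had a median of 0.11 with 72.2% positive, where all genes taken once each had 0.01 and 53.3%. Of the 18, 0 had an unadjusted p under 0.05 (0% against 4.19% of all probe sets). drosha, the nuclease that cuts microRNA precursors, was dim and had 0.33 (SE 0.15). rhi, of piRNA clusters, was near the floor and had 0.14 (SE 0.08). Of 88 measured long non-coding and antisense RNAs 1 had an unadjusted p under 0.05 (1.14% against 4.19% of all probe sets), lncRNA:CR31044 (0.24, SE 0.09). lncRNA:CR43242 had 0.44 (SE 0.18), with -0.01 on a further probe set. Both of these RNAs were dim.

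Stress and death genes had at most 1 member per list at an unadjusted p under 0.05, which 4.19% of all probe sets had. AIF, a mitochondrial flavoprotein that acts in cell death, was 25.05 and 26.7 in dSTING RNAi dsDNA arrays, 22.7 and 22.5 in dSTING RNAi mock, 22.6 and 23.5 in control dsDNA and 24.3 and 23.3 in control mock. The dsDNA arrays stood above mock in RNAi cells alone (interaction 0.23, SE 0.06, unadjusted limma p 0.0132), and AIF was the 1 of 13 apoptosis genes with an unadjusted p under 0.05 (7.69% against 4.19% of all probe sets). Debcl, a Bcl-2 family gene, had -0.26 (SE 0.17). Heat shock genes, measured for 9 of 21, had a median of 0.07, and the 7 brighter ones -0.04 without control dsDNA number 1. Hsp27, a small chaperone, was 37.5 and 38.6 in dSTING RNAi dsDNA arrays, 27.5 and 32.3 in dSTING RNAi mock, 38.1 and 40.3 in control dsDNA and 35.4 and 37.8 in control mock. The dSTING RNAi mock arrays of Hsp27 were the lowest (0.24, SE 0.12). The heat shock factor gene Hsf had 0.07 (SE 0.11).

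Unfolded protein response genes were among the groups with a negative median, -0.05 over 14 brighter members with 4 positive. It was 0.04 without control mock number 2 and -0.13 without control mock number 1. Sec61alpha, the channel through which proteins enter the endoplasmic reticulum, was 59.8 and 64.9 in dSTING RNAi dsDNA arrays, 71.4 and 67.4 in dSTING RNAi mock, 70.5 and 75.8 in control dsDNA and 69.6 and 68.3 in control mock. Its groups crossed (-0.24, SE 0.08, unadjusted limma p 0.0348), and it was the 1 of 16 with an unadjusted p under 0.05 (6.25% against 4.19% of all probe sets). Ire1, the sensor kinase, was dim and had -0.23 (SE 0.10), with -0.01 on a further probe set. JNK and stress kinase genes had a median of 0.03 over 14 brighter members (Atf-2 0.16, SE 0.05, near the floor; p38c 0.18, SE 0.14). Autophagy and lysosome genes also had 0.03, over 19 (cathD 0.09, SE 0.04, and Atg8b, near the floor, 0.12, SE 0.07).

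Metabolic genes had small medians whose sign changed with the arrays used. Lipid synthesis and storage genes had -0.04 over 16 brighter members, 0.10 without control mock number 2 and -0.16 without control mock number 1. Lsd-2, a lipid droplet perilipin, had 0.28 (SE 0.08) and Agpat1, an acyltransferase, 0.18 (SE 0.07), both near the floor. Glycolysis genes had 0.07 over 11, and -0.09 without dSTING RNAi dsDNA number 1 (Pglym78 0.20, SE 0.15; tobi, near the floor, 0.14, SE 0.05). Detoxification and oxidative stress genes had -0.01 over 13 and 0.06 without control mock number 2. GstE1, near the floor, had 0.26 (SE 0.13) and the peroxiredoxin gene Prx3 0.23 (SE 0.12). Glutathione S-transferases had 0.01 over 18, with -0.03 without dSTING RNAi mock number 1 (GstE10, near the floor, -0.22, SE 0.08). Cytochrome P450 genes had 0.00 over 11, with 0.09 without control mock number 2 (Cyp4ad1 0.24, SE 0.06; Cyp12c1 -0.13, SE 0.04, both near the floor). Ecdysone response genes had -0.05 over 5, and 0.07 without dSTING RNAi dsDNA number 1 (ImpE1, near the floor and with up to 0.05 on further probe sets, -0.40, SE 0.19; Cth -0.39, SE 0.17). The small positive medians of Imd, nucleic acid degradation, JNK, autophagy, V-ATPase and glutathione S-transferase genes were below 0 after either quantile normalization or centring (between -0.01 and -0.03), and that of cytosolic ribosomal proteins was -0.02 after centring.

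**Figure D5:**
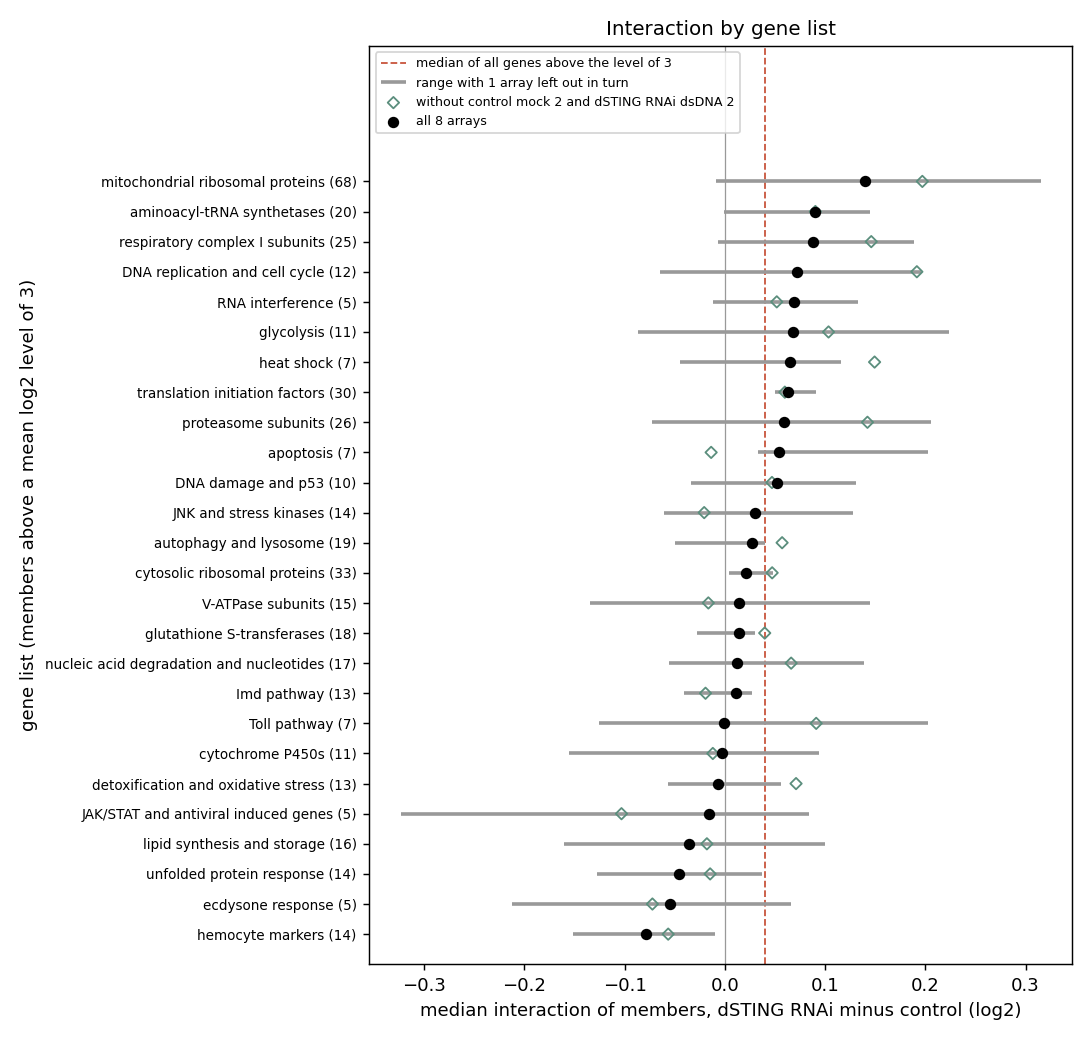
Median interaction on the log2 scale of the brighter members of each gene list with 5 or more, for all 8 arrays (points), without control mock 2 and dSTING RNAi dsDNA 2 (diamonds), and as a range with 1 array left out in turn (lines), with numbers of members in brackets and a dashed line at the median of brighter genes (0.04). Mitochondrial ribosomal proteins had the highest median (0.14) and hemocyte markers the lowest (-0.08), and most lines cross 0.

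Families that S2 cells hardly express show what the floor gives. None of 165 chemoreceptor genes, 66 Cpr cuticle genes and 24 Osiris genes was among the brighter genes, and their medians were 0.01, 0.00 and 0.03. Chemoreceptors had 9 genes at an unadjusted p under 0.05, or 5.45% against 4.19% of all probe sets, among them Gr36c (-0.23, SE 0.05) and Gr47b (-0.15, SE 0.04). Cuticle genes had 0, or 0% against 4.19% of all probe sets (Cpr97Eb 0.14, SE 0.06, and Cpr65Ea -0.11, SE 0.06). Osiris genes had 2 of 24, or 8.33% against 4.19% of all probe sets, a difference that 2 genes near the floor make. These were Osi9 (-0.23, SE 0.04) and Osi24 (0.14, SE 0.05). Among markers of other cells, Apoltp of the fat body, a lipid transfer protein, had 0.29 (SE 0.10), Fbp2 -0.12 (SE 0.08), Tm2 and Act88F of muscle -0.06 (SE 0.06) and -0.07 (SE 0.08), para and Rdl of neurons 0.07 (SE 0.08) and 0.09 (SE 0.11), Jon65Aiii and Mal-A1 of gut -0.16 (SE 0.08) and 0.24 (SE 0.18), and bgcn and tud of the germline -0.18 (SE 0.05) and 0.15 (SE 0.08). All of these but Apoltp and tud were near the floor.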

How the data were processed

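The intensities deposited by the authors are linear, with 1 value for each probe set in each array. RNA was labelled with biotin using the Affymetrix 3' IVT Express kit, per the labels' protocols. Software and normalization: not given in the sources used here. Scanner files were not used here. Of 18952 probe sets, 183 controls (AFFX) were left out. Platform annotation updated by gene identifier named 1 gene for 13647, several for 402 and none for 4720. No coordinates or sequences are printed, since no genome build is named and no sequence was given.

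Values were taken as log2(intensity + 1), and limma 3.58.1 in R 4.3.3 fitted 4 group means to 8 arrays (4 residual degrees of freedom, 5.317 with the prior). Tests were two-sided, adjusted by Benjamini-Hochberg over all probe sets, with a threshold of 0.05. The fit was tested on simulated data. Sting and genes around it were named, with 10 genes of smallest p in each direction, among brighter ones 10 of largest size and 5 of smallest p in each direction, and 2 per list; a few of these are not reported here. There were 24 lists and 13 families by symbol, with 1 probe set per gene, the brightest. Members and lists were chosen with earlier results of these data known. The number of arrays limits the precision. Alternatives were 2 scalings, another pseudocount (16), filters, variance models, the replicate number as a block and arrays left out.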

Additional observations from a re-analysis of the deposited data

How the results depend on the processing

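The interaction was called for 0 probe sets under each of the 18 alternatives run, and for 0 of the 130 named genes, whose smallest adjusted p was 0.484. Counts at an unadjusted p under 0.05 were 786 of 18769 probe sets with all arrays (4.19%) and 418 of 11982 with 1 probe set per gene (3.49%). They were 182 of 9384 above the median level (1.94%) and 36 of 4189 above a log2 level of 3 (0.859%). With 1 array left out, the lone array of a group is assumed to vary like the others. Sting then had -0.026 to 0.70, and 0.06 with log2(intensity + 16). Most of the 130 genes were chosen by the interaction in these same arrays, which favours a kept sign, so a count of kept signs partly describes the choice. Among Sting and the genes around it, named as a list, key alone kept its sign. Of the 130 genes 116 kept their sign throughout. With 1 array left out the others ranged across 0: cGlr1 -0.069 to 0.046, cGlr2 -0.021 to 0.22, Nazo -0.22 to 0.51, Srg1 -0.18 to 0.059, Srg2 -0.077 to 0.018, Rel -0.11 to 0.087, IKKbeta -0.10 to 0.26, IKKepsilon -0.031 to 0.14, CG3348 -1.08 to 0.10, CG10359 -0.96 to 0.069, Hsf -0.044 to 0.17, para -0.019 to 0.16 and Rdl -0.013 to 0.18. In that setting 1 array stands for its group, and no further cause was tested. Of 655 list medians under the alternatives 612 moved by less than the spread between arrays and 43 by more. The filters, variance models, replicate block and 1 probe set per gene left the interaction of each probe set unchanged, so they could reverse no sign. Apart from the filters, which change the members, they could not move a list median either. Part of the 612 was therefore fixed in advance.

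With the replicate number as a block 0 probe sets were called, with 717 at an unadjusted p under 0.05 (3.82%). In this balanced design the block cannot change the interaction itself, so Sting kept 0.34. Same-numbered deviations correlated between -0.737 and 0.384, so the numbers were not taken to pair the samples.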
